A study of Homo sapiens with 6 samples.

Results

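The 7 miRNAs described here, miR-186-5p, miR-28-5p, miR-33a-5p, miR-342-3p, miR-361-5p, miR-126-3p and miR-338-3p, each lie inside a protein-coding host gene. They were taken by name from a list of intronic miRNAs, out of 800 human miRNA rows. The list was chosen with earlier results of these data known. They were measured in RMUG-S-ip1 cells, a mucinous ovarian cancer line, with the nCounter assay, which counts colour-coded reporters on captured miRNAs without amplification. There were 3 libraries of cells transfected with an siRNA against PRKRA (siPRKRA) and 3 of cells transfected with a control siRNA, and every library started from 100 ng of total RNA. All cells received RNAiMAX and fresh medium 6 hours later. The labels do not say whether the 3 libraries of a group came from separate cultures, so the p-values cover the spread of these libraries alone. How far PRKRA was silenced is unknown, as its mRNA was not analysed here.

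An intronic miRNA is usually transcribed with its host gene. The Microprocessor, built on Drosha, cuts the hairpin out of the primary transcript, often before the intron is spliced. Dicer then cuts the exported hairpin into a duplex whose strands, the 5p and 3p arms, can each be loaded into an Argonaute protein, and PACT, the protein encoded by PRKRA, binds double-stranded RNA and works beside Dicer, as does TRBP. The loaded miRNA recognises mRNAs mainly through its seed, bases 2 to 8. Setting siPRKRA against control siRNA asks which miRNAs differ when this Dicer partner is silenced. The host mRNAs were not analysed here.

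By RefSeq's annotation of GRCh38.p14, 7 of 7 miRNA genes lay within the span of their host and on its strand. They all lay in the later part of the host, between 72.6% and 91.4% of its length from the start of the gene. MIR186 lay 13.3 kb into ZRANB2, which encodes a zinc-finger splicing factor, on chromosome 1. MIR28 lay 536 kb into LPP, which encodes a LIM protein of focal adhesions, on chromosome 3. MIR33A lay 67.8 kb into SREBF2, which encodes the transcription factor that drives cholesterol synthesis genes, on chromosome 22. MIR342 lay 138 kb into EVL, an actin regulator gene, on chromosome 14, and MIR361 144 kb into CHM, which encodes a Rab escort protein, on chromosome X. MIR126 lay 11.7 kb into EGFL7, a gene of endothelial cells, on chromosome 9, and MIR338 40.3 kb into AATK, which encodes a kinase known from the nervous system, on chromosome 17. The exon structure of the hosts was not used here, so the intronic position is that of the list.

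RefSeq's miRNA table gave the mature sequence of 5 of the 7. They are shown with the seed in capitals, because a shared seed would give miRNAs of separate genes a common set of targets, and each had 1 locus in that table.
miR-33a-5p, chr22:41900949-41900969, plus strand: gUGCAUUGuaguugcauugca
miR-342-3p, chr14:100109715-100109737, plus strand: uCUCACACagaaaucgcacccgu
miR-361-5p, chrX:85903681-85903702, minus strand: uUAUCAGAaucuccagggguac
miR-126-3p, chr9:136670653-136670674, plus strand: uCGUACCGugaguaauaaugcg
miR-338-3p, chr17:81125887-81125908, minus strand: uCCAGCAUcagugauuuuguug
The 5 seeds differed from each other. None of the miRNAs named in the files and matched to that table (148 of 183 names) carried any of these 5 seeds besides the miRNA itself. In the whole RefSeq table the seed of miR-33a-5p was that of 1 further miRNA, miR-33b-5p of the SREBF1 gene, which was not analysed here, and the other 4 seeds had 0 further carriers. The GC content of the 5 was between 40.9% and 52.2%.

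The deposited values are counts above a background, multiplied by 1 factor for each library. Unscaled, all miRNA rows together held 142684 to 305261 counts in siPRKRA libraries, against 51641 to 56192 in control siRNA libraries, and the factors were 0.231 to 1.09 and 1.32 to 1.53. siPRKRA replicate 2 stood apart. Its log2 values correlated with those of the other libraries at 0.833 to 0.884 across tested miRNAs, which are not independent replicates, and miR-4454 made up 62.8% of its miRNA counts. The 6 listed epithelial markers differed widely. miR-200c-3p lay at 4001 to 4835 in siPRKRA and 5391 to 6410 in control siRNA libraries, and miR-205-5p at 2293 to 2745 and 2578 to 2815. miR-141-3p lay at 267 to 390 and 412 to 522, and miR-200b-3p at 58.8 to 112 and 48.0 to 70.3. miR-200a-3p and miR-429 lay at the floor in 3 of 3 control libraries. Of the other listed markers, those of blood, endothelial and mesenchymal cells, miR-126-3p and miR-144-3p were the 2 named in the files. The blood marker miR-144-3p had values of 1.09 to 39.4 in siPRKRA and 6.07 to 151 in control siRNA libraries.

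All 7 miRNAs lay above the floor, the lowest value a library can show, in 6 of 6 libraries. Differences were tested with limma on log2(value + 1) over the 106 miRNAs that reached a value of 30 in 3 or more of the 6 libraries, and p-values were adjusted over these 106 by the Benjamini-Hochberg method. All 7 passed that filter. miR-186-5p reached 30 in 3 siPRKRA libraries and 1 control library, and miR-33a-5p in 3 siPRKRA and 2 control libraries. Without the siPRKRA libraries neither would have entered the test. miR-338-3p reached 30 in 1 siPRKRA library and 2 control libraries, so it needed both groups to enter. Fold changes are given as siPRKRA over control siRNA in log2(value + 1), where the 1 added makes the change of a low value look smaller.

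At an adjusted p under 0.05, limma called 0 of the 7 miRNAs changed, and 0 of the 106 tested (0%). At an unadjusted p under 0.05 it had 3 of the 7 higher in siPRKRA (miR-186-5p, miR-28-5p and miR-342-3p), against 7.55% of all tested, and 1 of the 7 lower (miR-361-5p), against 8.49%. limma-voom on the counts before the factor also called 0. Without siPRKRA replicate 2 limma called 4 of the 106 and 0 of the 7, and without control replicate 3 it called 2 of the 106, of which miR-186-5p was 1. Estimates were higher for 4 of the 7 and lower for 3, with a median log2 fold change of 0.56, against 41.5% higher and 58.5% lower with a median of -0.06 over all tested. The values of 4 of the 7 lay higher in every siPRKRA library than in any control library, against 12.3% of all tested, and those of 1 lay lower in every siPRKRA library, against 15.1%.

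**Figure D1:**
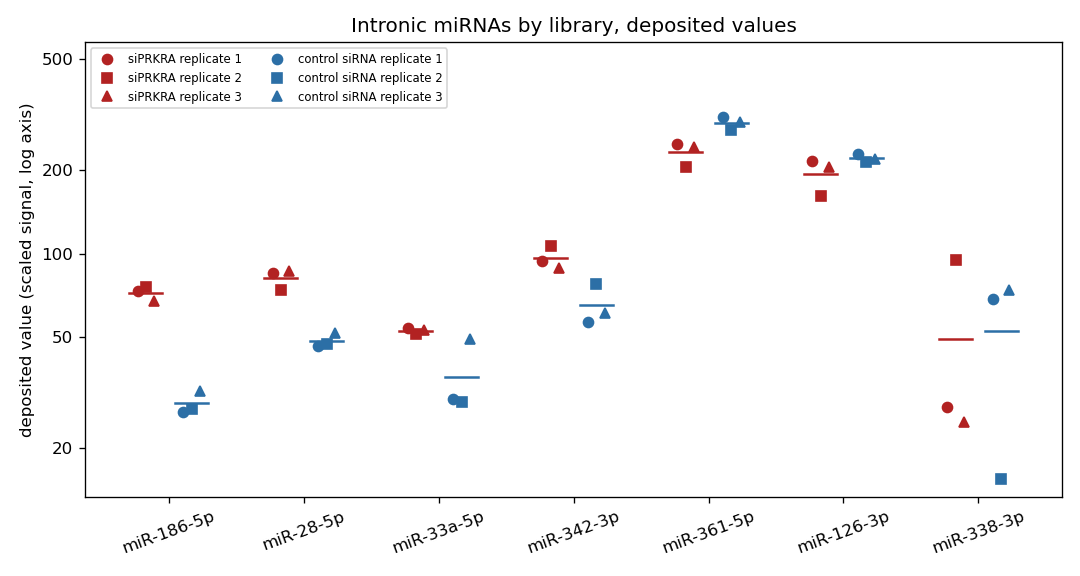
Deposited values (scaled signal, log axis) of the 7 intronic miRNAs in each library, siPRKRA in red left of control siRNA in blue, with symbols for replicates 1 to 3 and a line at the group mean. The groups do not overlap for miR-186-5p, miR-28-5p, miR-33a-5p and miR-342-3p, where siPRKRA lies higher, nor for miR-361-5p, where it lies lower.

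miR-186-5p, from ZRANB2, had values of 73.3, 76.2 and 67.5 in siPRKRA libraries, against 27.0, 27.6 and 32.1 in control siRNA libraries. The lowest siPRKRA library was above the highest control library by more than the whole spread of either group. Its log2 fold change was 1.30 ± 0.20 (SE), with a 95% interval of 0.80 to 1.79 and a limma adjusted p of 0.0718. It had the smallest p of the 106 tested miRNAs and the fifth highest fold change. Without control replicate 3, the highest control library, it passed, at 1.37 ± 0.17 (SE; limma adjusted p = 0.0407), and without any of the other libraries it did not. In the authors' deposited table, which tested each of 177 miRNAs by itself, miR-186-5p had an adjusted p of 0.0439 and was 1 of 2 miRNAs (1.13%) under 0.05.

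miR-28-5p, from LPP, had values of 85.3, 74.0 and 86.3 in siPRKRA libraries, against 46.5, 47.5 and 51.8 in control siRNA libraries. All siPRKRA libraries lay above all control libraries. Its log2 fold change was 0.74 ± 0.17 (SE; 95% interval 0.32 to 1.16), which did not pass at a limma adjusted p of 0.175. The authors' deposited table gives it an adjusted p of 0.0993.

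miR-33a-5p, which lies in the gene of the sterol-responsive factor SREBP2 and represses the cholesterol exporter ABCA1, had values of 54.1, 51.2 and 53.0 in siPRKRA libraries, against 30, 29.2 and 49.2 in control siRNA libraries. The siPRKRA libraries were close together, while control replicate 3 lay near them. The log2 fold change was 0.58 ± 0.28 (SE; 95% interval -0.10 to 1.25; limma adjusted p = 0.301). Without control replicate 3 it was 0.81 ± 0.18 (SE; limma adjusted p = 0.114).

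miR-342-3p, whose host EVL is silenced together with it by promoter methylation in colorectal cancer, had values of 94.1, 107 and 88.7 in siPRKRA libraries, against 56.9, 78.0 and 61.0 in control siRNA libraries. The groups did not overlap, and control replicate 2 came closest to the siPRKRA libraries. The log2 fold change was 0.56 ± 0.19 (SE; 95% interval 0.10 to 1.02; limma adjusted p = 0.265).

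miR-361-5p, reported to repress VEGFA, had values of 248, 204 and 242 in siPRKRA libraries, against 310, 279 and 298 in control siRNA libraries. Every siPRKRA library lay below every control library, siPRKRA replicate 2 by the most. The log2 fold change was -0.36 ± 0.12 (SE; 95% interval -0.65 to -0.06) and did not pass at a limma adjusted p of 0.265.

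In RNA pooled from a culture, a lower value can mean fewer cells with the miRNA or less of it in each, which cannot be told apart here. miR-126-3p, the endothelial miRNA that represses SPRED1 and PIK3R2, had values of 216, 161 and 205 in siPRKRA libraries, against 229, 214 and 219 in control siRNA libraries. The groups overlapped, and siPRKRA replicate 2 was the lowest library. The log2 fold change was -0.19 ± 0.14 (SE; 95% interval -0.55 to 0.16; limma adjusted p = 0.450), and without siPRKRA replicate 2 it was -0.07 ± 0.10 (SE). Its values lay below those of the epithelial miR-200c-3p, miR-205-5p and miR-141-3p in every library. They lay above those of the other listed epithelial markers, miR-200b-3p, miR-200a-3p and miR-429. Different probes need not capture with the same efficiency, so this gives no order of amounts.

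miR-338-3p, known from oligodendrocyte maturation, had values of 28.0, 94.6 and 24.8 in siPRKRA libraries, against 68.9, 15.4 and 74.1 in control siRNA libraries. In each group 1 library went against the other 2, siPRKRA replicate 2 upward and control replicate 2 downward, so that the group standard deviations were 80.2% and 61.5% of the means. The log2 fold change was -0.09 ± 0.78 (SE), with a 95% interval of -2.0 to 1.82. These libraries cannot show whether miR-338-3p differed.

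The order of the probe signals was nearly kept between the groups, apart from miR-186-5p and miR-338-3p. Probes can differ in capture, so it is an order of signals and not of miRNA amounts. In siPRKRA libraries the means ran from miR-361-5p (231 ± 23.7, SD, n = 3) over miR-126-3p (194 ± 29.2), miR-342-3p (96.4 ± 9.18), miR-28-5p (81.9 ± 6.83), miR-186-5p (72.3 ± 4.40) and miR-33a-5p (52.8 ± 1.47) to miR-338-3p (49.2 ± 39.4). The ranges of miR-361-5p and miR-126-3p, of miR-28-5p and miR-186-5p, and of miR-33a-5p and miR-338-3p overlapped there. In control siRNA libraries the order was miR-361-5p (296 ± 15.3, SD, n = 3), miR-126-3p (220 ± 7.73), miR-342-3p (65.3 ± 11.2), miR-338-3p (52.8 ± 32.5), miR-28-5p (48.6 ± 2.83), miR-33a-5p (36.1 ± 11.3) and miR-186-5p (28.9 ± 2.75). From miR-342-3p downward each neighbour's range overlapped the next. Among the 800 rows miR-186-5p ranked 79, 74 and 85 in siPRKRA libraries, against 104, 105 and 101 in control siRNA libraries, a placing that a factor per library cannot change. miR-126-3p kept its place, at rank 54, 56 and 51 in siPRKRA and 54, 56 and 53 in control siRNA libraries. miR-361-5p ranked 48, 52 and 48, against 44, 47 and 45.

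Set against the median tested miRNA of the same library, where a common factor cancels, the same 4 miRNAs lay higher in siPRKRA libraries. Relative to that median miR-186-5p stood at -1.39 ± 0.16 log2 units in siPRKRA libraries and at -2.94 ± 0.21 in control siRNA libraries (SD, n = 3 each), a difference of 1.54 (exact permutation p = 0.1, two-sided, the smallest that 3 against 3 libraries allow). The differences were 0.99 for miR-28-5p, 0.82 for miR-33a-5p and 0.81 for miR-342-3p (exact permutation p = 0.1 each). They were -0.11 for miR-361-5p (exact permutation p = 0.3), 0.05 for miR-126-3p (exact permutation p = 0.9) and 0.16 for miR-338-3p (exact permutation p = 1). For miR-361-5p the groups overlapped on this scale. These are the same values on another scale, and miR-186-5p and miR-33a-5p entered the test only through the siPRKRA libraries. The differences also depended on the background. With 25 counts added to every count, a setting described below, they were 0.76 for miR-186-5p, 0.54 for miR-28-5p and 0.48 for miR-342-3p. For miR-33a-5p the difference was then 0.25 (exact permutation p = 0.2).

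The counts behind these values were unequal. miR-186-5p rested on 317, 70.2 and 144 counts above background in siPRKRA libraries, against 18.1, 18.1 and 24.4 in control siRNA libraries. miR-28-5p rested on 369, 68.2 and 184 counts, against 31.1, 31.1 and 39.4, and miR-33a-5p on 234, 47.2 and 113, against 20.1, 19.1 and 37.4. miR-342-3p had 407, 98.2 and 189 counts, against 38.1, 51.1 and 46.4. For miR-361-5p there were 1074, 188 and 515 counts in siPRKRA libraries and 207, 183 and 226 in control siRNA libraries. In these counts siPRKRA replicate 2 was the closest of its group to the control libraries for 6 of the 7, the exception being miR-338-3p. At 18.1 counts, counting error alone is 23.5% of the value, whereas the control values of miR-186-5p spread by a standard deviation of 9.53%. Counting error alone would give its log2 fold change an SE of 0.20, close to the 0.20 of limma, and that of miR-28-5p one of 0.16, against 0.17. These errors leave out the subtracted background and cover counting only.

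**Figure D2:**
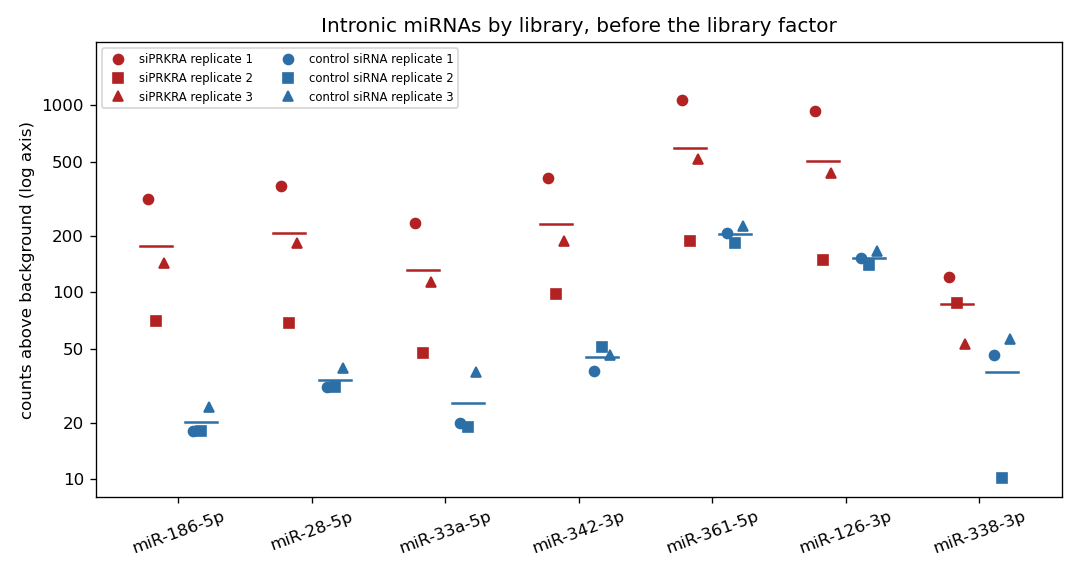
Counts above background of the 7 intronic miRNAs before the library factor (log axis), siPRKRA in red left of control siRNA in blue, with symbols for replicates 1 to 3 and a line at the group mean. siPRKRA replicates 1 and 3 lie above the control libraries for 6 of the 7, and replicate 2 lies within the control range for miR-361-5p and miR-126-3p.

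The 4 miRNAs with higher values all had a mean over the 6 libraries under 100, where higher estimates were common. Of the 40 tested miRNAs with such a mean, 27 had a higher and 13 a lower estimate, with a median log2 fold change of 0.19, and 5 of the 7 intronic miRNAs were among them. The filter bears on this class. In it 10 miRNAs, miR-186-5p and miR-33a-5p among them, reached a value of 30 in more siPRKRA than control libraries, and 8 in more control libraries. Part of their difference can come from how they entered the test. Of the 66 with a mean of 100 or more, 17 had a higher and 49 a lower estimate, with a median of -0.16. All 13 miRNAs that lay higher in every siPRKRA library than in any control library were in the lower class, and 4 of these 13 were intronic miRNAs of the 7. The dependence on the subtracted background was looked at by adding 25 counts to every count before the factor, a round number chosen with earlier results of these data known. The factors were 0.231 to 1.09 in siPRKRA and 1.32 to 1.53 in control siRNA libraries, so the same 25 counts added more to control values. For a low miRNA with equal values in both groups this alone lowers the estimate. The fall of low miRNAs in this setting is therefore partly set by the factors. The median of the lower class was then -0.17 and that of the upper class -0.18. The log2 fold change then was 0.41 ± 0.16 for miR-186-5p (SE; adjusted p = 0.230 in limma), miR-28-5p had one of 0.19 ± 0.12, miR-342-3p one of 0.13 ± 0.17 and miR-33a-5p one of -0.10 ± 0.18, while miR-361-5p stood at -0.43 ± 0.09 and miR-126-3p at -0.30 ± 0.10 (SE; none passed, at limma adjusted p values of 0.230 or more).

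**Figure D3:**
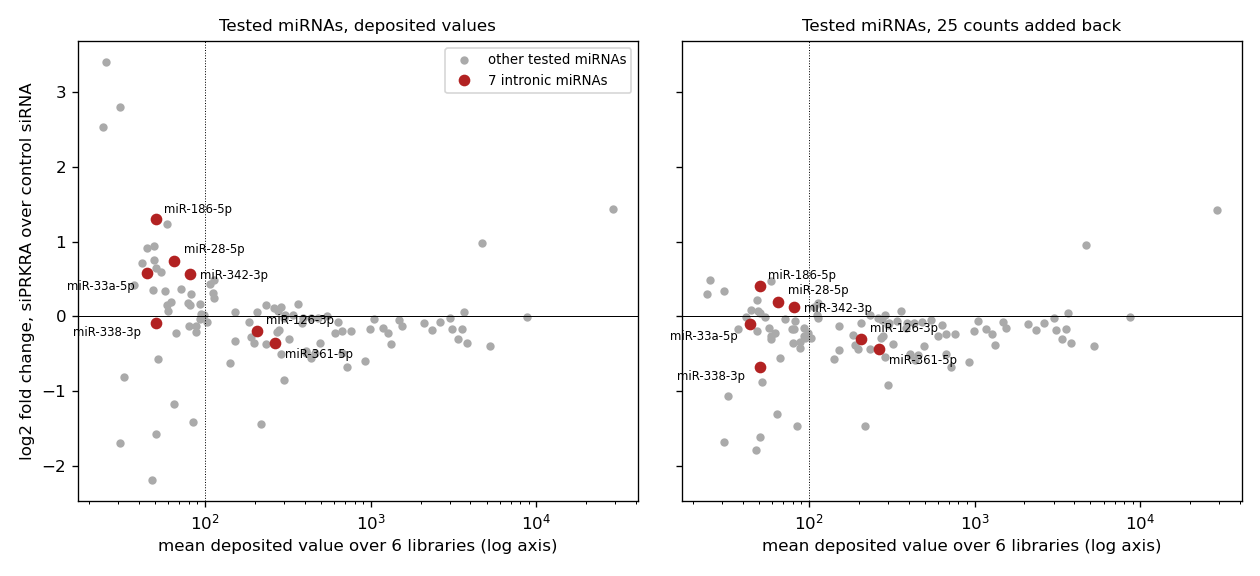
Log2 fold change (siPRKRA over control siRNA) of the 106 tested miRNAs against their mean deposited value over the 6 libraries (log axis), the 7 intronic miRNAs in red, with deposited values on the left and 25 counts added back on the right. The dotted line marks a value of 100. Left of it miR-186-5p lies at 1.30 with deposited values and at 0.41 with 25 counts added.

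The scale also set the sign for several of the 7. Scaled by the 5 graded control probes of the assay in place of the authors' factors, the median of all tested miRNAs was 1.61 log2 units, and 22 of the 106 (20.8%) passed, all higher. Of the 7 miRNAs, 4 passed there in limma: miR-186-5p (2.92 ± 0.80, SE, adjusted p = 0.00602), miR-28-5p (2.38 ± 0.76, adjusted p = 0.0210), miR-342-3p (2.21 ± 0.74, adjusted p = 0.0280) and miR-33a-5p (2.20 ± 0.81, adjusted p = 0.0400). These tests were against no change and include the common shift. Scaled by the 5 mRNA rows, which put the median of all tested miRNAs at -0.62, the same 4 stood at 0.75 ± 0.63, 0.19 ± 0.59, 0.01 ± 0.55 and 0.03 ± 0.65 (SE), and none of the 7 passed, with limma adjusted p values of 0.403 or more. With the median log2 fold change of all tested miRNAs subtracted, the 4 stood at 1.31, 0.77, 0.60 and 0.60 with the graded control probes. With the authors' factors they stood at 1.36, 0.80, 0.62 and 0.64, a likeness that a factor per library nearly fixes. miR-361-5p stood at 1.31 and miR-126-3p at 1.47 with the graded control probes, and at -0.92 and -0.75 when the values were scaled by the mRNA rows. The direction of these 2 miRNAs therefore rests on the scaling. With the median fold change subtracted, miR-361-5p was at -0.30 and miR-126-3p at -0.14 with the graded control probes. With the mRNA rows they were at -0.29 and -0.13. Against the median miRNA of each library, the measure used further above, miR-361-5p differed by -0.11 and miR-126-3p by 0.05. The sign for miR-126-3p thus depends on which median is taken.

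**Figure D4:**
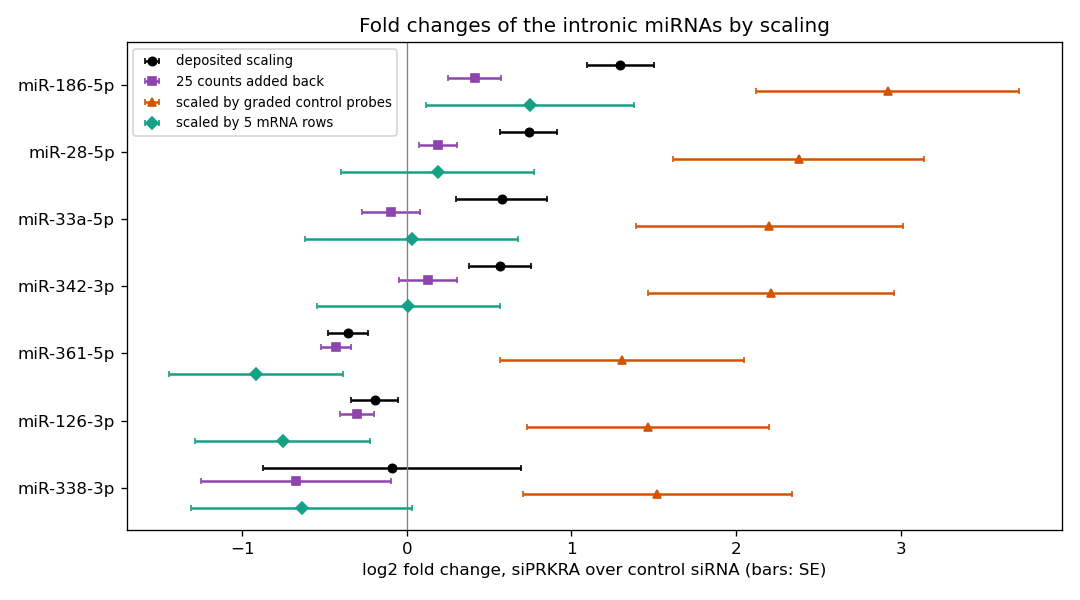
Log2 fold changes (siPRKRA over control siRNA, with SE bars) of the 7 intronic miRNAs under the deposited scaling, with 25 counts added back, scaled by the graded control probes and scaled by the 5 mRNA rows. All 7 lie above 0 with the graded control probes, where the median of all tested miRNAs is 1.61.

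For MIR28 and MIR361 both arms of the hairpin were named in the files, so that each library gives a ratio of arms in which its factor cancels. The MIR361 hairpin is shown because both arms that Dicer releases from it were measured. It lies at chrX:85903636-85903707 on the minus strand (GRCh38.p14, RefSeq), with miR-361-5p and then miR-361-3p in capitals.
MIR361: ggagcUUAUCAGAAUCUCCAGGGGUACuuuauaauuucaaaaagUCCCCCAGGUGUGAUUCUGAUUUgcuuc
miR-361-3p had values of 20.4, 19.7 and 30.5 in siPRKRA libraries, against 37.5, 33.7 and 54.4 in control siRNA libraries. Like the 5p arm it lay lower in every siPRKRA library, at a log2 fold change of -0.80 ± 0.34 (SE; adjusted p = 0.293 in limma). miR-361-3p reached a value of 30 in 3 control libraries and 1 siPRKRA library. Without the control libraries it would not have entered the test. The 5p arm was 12.2, 10.4 and 7.94 times the 3p arm in siPRKRA libraries, against 8.26, 8.28 and 5.47 times in control siRNA libraries. The ranges of the ratio overlapped, with a difference of 0.47 log2 units (exact permutation p = 0.3). With 25 counts added back that difference was 0.63 (exact permutation p = 0.1), without overlap. Added counts shrink the ratio most where the 3p counts are low. These were 88.3, 18.2 and 64.9 in siPRKRA libraries, against 25.1, 22.1 and 41.4 in control siRNA libraries. The loss of overlap therefore cannot be read as a shift between the arms.

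miR-28-3p, the other arm of MIR28, had values of 66.8, 62.1 and 60.0 in siPRKRA libraries, against 56.9, 64.2 and 33.4 in control siRNA libraries. Its groups overlapped, unlike those of miR-28-5p, and its log2 fold change was 0.34 ± 0.29 (SE; limma adjusted p = 0.516). Without control replicate 3, where miR-28-3p was lowest, its values of 60.0 to 66.8 in siPRKRA libraries stand beside 56.9 and 64.2 in the remaining control libraries. miR-28-5p was 1.28, 1.19 and 1.44 times miR-28-3p in siPRKRA libraries, against 0.816, 0.739 and 1.55 times in control siRNA libraries. The arms have separate probes, so the ratio is read between groups and not as the level of one arm over the other. The difference of 0.41 log2 units was within the spread (exact permutation p = 0.4).

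**Figure D5:**
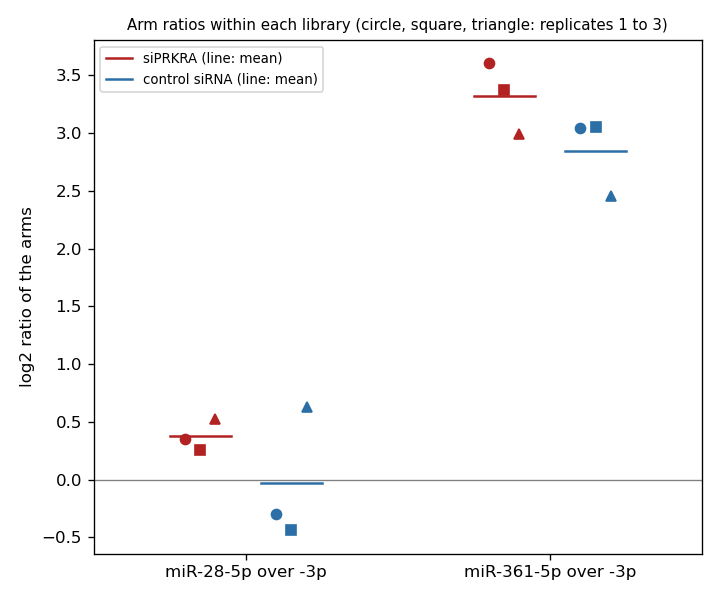
Log2 ratio of the 5p to the 3p arm of MIR28 and MIR361 in each library, siPRKRA in red left of control siRNA in blue, with symbols for replicates 1 to 3 and a line at the group mean. The groups overlap for both hairpins, and control replicate 3 lies at the top for MIR28 and at the bottom for MIR361.

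Further miRNAs that lie inside coding host genes had estimates on both sides of 0. Of 37 such miRNAs listed, 23 were named in the files and 14 were tested. Of the 14, 6 had a higher and 8 a lower estimate, with a median log2 fold change of -0.02 and a range of -0.56 to 0.24. None passed in limma, and 0 had an unadjusted p under 0.05 in either direction. The groups failed to overlap for 1, miR-106b-5p of MCM7, which lay lower in siPRKRA libraries, against 15.1% of all tested. Its mean was 369 ± 155 in siPRKRA and 505 ± 19.3 in control siRNA libraries (SD, n = 3 each). miR-93-5p and miR-25-3p of the same MCM7 intron stood at 631 ± 118 and 432 ± 64.0 in siPRKRA libraries, against 717 ± 32.6 and 435 ± 2.41 in control siRNA libraries. miR-32-5p of TMEM245 averaged 391 ± 134, against 525 ± 66.2, miR-148b-3p of COPZ1 387 ± 32.1, against 392 ± 27.8, and miR-191-5p of DALRD3 341 ± 35.7, against 337 ± 49.5. In the lower class of values, with a mean over the 6 libraries under 100, were 3 of the 14. These were miR-423-5p, miR-149-5p and miR-185-5p, with log2 fold changes of 0.03 ± 0.45, -0.23 ± 0.33 and 0.15 ± 0.27 (SE). Of the 9 that were not tested, 7 lay at the floor in 3 of 3 control libraries. Of these 9, 2 lay higher in every siPRKRA library than in any control library, miR-582-5p of PDE4D at 30.1, 13.2 and 12.6 and miR-151a-5p of PTK2 between 4.64 and 11.9 in siPRKRA libraries, both at the floor in control siRNA libraries. The share of such rows among all untested miRNAs was not computed, so the 2 of 9 are not a result about intronic miRNAs. siPRKRA libraries had 165 to 174 miRNAs above the floor, against 125 to 130 in control siRNA libraries. What depth adds to such differences was not tested.

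The tested miRNAs most like each of the 7 were named by Pearson correlation over the 6 libraries, as a description. miR-186-5p was most like miR-28-5p (0.97), and then miR-193b-3p (0.95). The miRNA most like miR-342-3p was miR-186-5p (0.87), followed by miR-512-3p (0.85). miR-28-5p was most like the probe that miR-181b-5p shares with miR-181d (0.97), which had values of 60.4, 46.9 and 50.2 in siPRKRA libraries, against 28.5, 32.2 and 33.4 in control siRNA libraries. miR-33a-5p followed miR-324-5p (0.98) and then miR-4532 (0.95). For miR-4532 the values were 33.8, 85.9 and 32.3 in siPRKRA libraries, against 3.08, 1.53 and 28.1 in control siRNA libraries. It too entered the test only through siPRKRA libraries. Like miR-33a-5p, miR-324-5p was high in control replicate 3, at 51.8, against 21.0 and 24.6 in the other control libraries and 52.5 to 62.1 in siPRKRA libraries. miR-361-5p was most like miR-130a-3p (0.97) and miR-24-3p (0.96), and miR-126-3p most like miR-29b-3p (0.99) and miR-19b-3p (0.98), each lowest in siPRKRA replicate 2. miR-338-3p followed miR-148b-3p (0.95) and then miR-22-3p (0.88). The values of miR-148b-3p were 383, 421 and 358 in siPRKRA libraries and 413, 360 and 402 in control siRNA libraries. Within the groups, after subtracting each group's mean, miR-186-5p and miR-28-5p correlated at 0.09, so that their likeness over 6 libraries lay in the difference between the groups, whereas miR-126-3p and miR-29b-3p still correlated at 0.99 and miR-338-3p and miR-148b-3p at 0.95.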

How the data were processed

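The authors deposited a signal per probe and library (822 rows) and, for 800 miRNA rows, its log2, which matched within 0.000234. The authors' table also gives, for 177 named miRNAs, a p-value from a t-test or rank test, an adjusted p-value, log2 levels per group and a fold score, the ratio of log2 levels, not used here. Per the labels' protocols RNA came from the mirVana kit. For the counting software and background rule, no source used here gives them.

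The factor of each library was recovered from the steps between low values. After division by it, 100.0% of low values in each library lay within 0.1 of a whole count plus a fixed fraction. The fit used R 4.3.3 and limma 3.58.1, with lmFit, trended eBayes and group as the only term. In 20 simulated runs of the 106 miRNAs with 20 changed, it called 66.0% of 1 log2 unit changes and 88.0% of changes of 2. It made 17 false calls among 1720 unchanged miRNAs. The simulated noise was drawn independently for each miRNA, whereas deviations in these libraries were shared between miRNAs. These shares therefore need not hold for the real test. Ratios used exact permutation tests. Python 3.11.15 was used. 0 columns of per-sample values were left unmapped. Members, lists and tests were chosen with earlier results of these data known. Named were the 7 miRNAs, their other arms, the 6 highest and any singled-out further intronic miRNAs, and the 2 miRNAs most correlated with each, by a written rule. miR-106b-5p, miR-582-5p, miR-151a-5p and the 3 further intronic miRNAs under 100 were singled out after their values were seen. Same-numbered libraries showed no common deviation, which cannot exclude that they were paired.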

Additional observations from a re-analysis of the deposited data

How the results depend on the processing

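Over 15 alternatives, of 105 fold changes 91 kept their direction and their side of the limma threshold. miR-186-5p ranged from 0.41 to 2.92, with limma adjusted p values of 0.00602 to 0.468, and passed in 3. These were no filter (limma adjusted p = 0.00950), the graded control probes, and without control siRNA replicate 3 (1.37, limma adjusted p = 0.0407). With no filter, 635 of 800 rows passed, 24 of them higher. Floors were 1 to 1.09 in siPRKRA and 1.32 to 1.53 in control libraries, so rows at the floor differ by that alone. The SE of miR-186-5p was 0.34 there, against 0.20 in the main fit. The count of passing miRNAs, 0 with deposited scaling, was 635 with no filter, 22 with graded control probes, 1 with the mRNA rows and 0 to 4 with a library left out (4 without siPRKRA replicate 2, 2 without control siRNA replicate 3). The count among the 7 was 1 with no filter, 4 with graded control probes and 0 to 1 with a library left out. Graded control probes turned miR-361-5p (1.31), miR-126-3p (1.47) and miR-338-3p (1.52), which include the common shift of 1.61. With 25 counts added back, miR-33a-5p turned to -0.10. For miR-338-3p leaving out a library gave -0.80 to 0.29. Relative to the library median, miR-338-3p was at -0.32 with 25 counts added back and between -0.59 and 0.59 with a library left out, and miR-126-3p between -0.045 and 0.14. At a value of 30 in place of the floor, 4 of the 7 were detected in every library. The replicate number as a block left 0 calls, with miR-186-5p at a limma adjusted p of 0.322. Same-numbered libraries correlated in their deviations at 0.17, -0.09 and -0.07, and differently numbered ones at -0.20 to 0.27. The check showed no pairing by number, but with so few libraries it cannot exclude one. The planned edgeR test was not run, as no column holds whole counts before background subtraction. With 10.1 to 56.4 counts behind the control values of the 5 lower miRNAs, changes under their counting error cannot be seen.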
